A study of Mus musculus with 6 samples.

Results

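The genes described here are 10 regulators of the transcription factor p53, measured in mouse medullary thymic epithelial cells of control mice and of mice with a conditional knockout of the p53 gene, Trp53. They were chosen by name from the 51810 genes of the series table: Mdm2, Rchy1 and Trim24 (ubiquitin ligases), Mdm4 (the partner of MDM2), Usp7 (a deubiquitinase), Ppm1d (a phosphatase), Hipk2 (a kinase), and Kat5, Ep300 and Crebbp (acetyltransferases). All 10 were found and all 10 passed the filter on low counts. The study sequenced poly(A) RNA of 6 libraries: 3 have the genotype P53-WT and are titled P53-NoCre, that is without Cre (WT), and 3 have the genotype P53-cKO, a conditional knockout (cKO). Both groups are mTEChi, the mature medullary epithelial cells, from mice aged 4 to 5 weeks, and 75000 cells were sorted for a library. The labels name neither the Cre driver nor the strain, do not say whether the WT mice carry the allele that Cre deletes, and do not say whether each library is a separate animal, so p-values measure the spread between these libraries, which may be technical in part.

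p53 is made continuously and destroyed almost as fast. MDM2 attaches ubiquitin to it and sends it to the proteasome, MDM4 joins MDM2 and covers the part of p53 that activates transcription, and p53 in turn activates Mdm2, which closes a negative feedback loop. Kinases such as HIPK2 and acetyltransferases such as TIP60 (the product of Kat5), p300 (Ep300) and CBP (Crebbp) modify p53 and favour transcription of its targets, and the phosphatase WIP1 (Ppm1d) takes phosphate groups off again. In medullary thymic epithelium, which transcribes genes of many other organs so that developing T cells can be tested against them, the title of the series names repression of p53, and the comparison asks what its loss does to RNA levels. Much of the regulation described above acts on proteins, and RNA counts do not show it.

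The library totals lay between 45457892 and 50128045 counts. The 12 markers of mature medullary cells were detected in both groups, from Cd86 at a mean of 52.7 CPM (read counts scaled to library size by the TMM method) to the class II gene H2-Aa at 8680 CPM, so the defining markers of the labelled cell type were present. Each library matched its genotype label, with 361 to 386 counts of Trp53 in the cKO libraries and 4837 to 5351 in the WT libraries (log2 fold change -3.81, edgeR adjusted p = 5.76e-10). Of the 7 marker lists of medullary and other cell types, 6 had summed levels that overlapped between the groups. The exception was the red cell list, at 83.5 to 90.3 CPM in WT and 57.2 to 82.8 CPM in cKO. The share of reads from ribosomal protein genes was also lower in every cKO library, at 0.744% to 0.821%, against 0.866% to 0.935% for WT. The part of either difference in the results below was not tested. In bulk RNA, fewer cells of a type and less RNA per cell cannot be told apart.

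Mdm2 was the most abundant of the 10 transcripts and Hipk2 the least abundant in both groups, a span of 66.3 ± 3.51 to 10.8 ± 0.236 in WT and 62.1 ± 1.62 to 12.2 ± 1.78 in cKO (deposited TPM, a level per length that is scaled to 1 total in every library; SD, n = 3 each). Trp53 itself stood at 60.8 ± 5.56 TPM in WT, close to Mdm2, and at 4.42 ± 0.290 TPM in cKO. In WT the order after Mdm2 was Mdm4 at 36.0 ± 5.91, Rchy1 at 31.3 ± 4.43 and Usp7 at 24.9 ± 3.22 TPM. A lower tier held Ep300 at 16.7 ± 1.42, Kat5 at 16.5 ± 1.74, Ppm1d at 14.9 ± 0.781, Trim24 at 12.5 ± 0.858 and Crebbp at 12.0 ± 1.38 TPM. The WT ranges were separate between Mdm2 and Mdm4, between Usp7 and Ep300, and between Ppm1d and Trim24, and they overlapped between all other neighbours in this order. In cKO, Rchy1 stood above Mdm4, with 32.1 ± 4.87 against 29.5 ± 1.48 TPM and overlapping ranges, and the other 8 genes kept their places. The cKO ranges were separate between Mdm2 and Rchy1, Mdm4 and Usp7, Usp7 and Ep300, and Kat5 and Ppm1d. TPM divides by the length of all annotated exons, 14798 bases for Mdm4 and 5083 for Mdm2, so a gene with long exons that few transcripts contain gets a lower value.

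**Figure D1:**
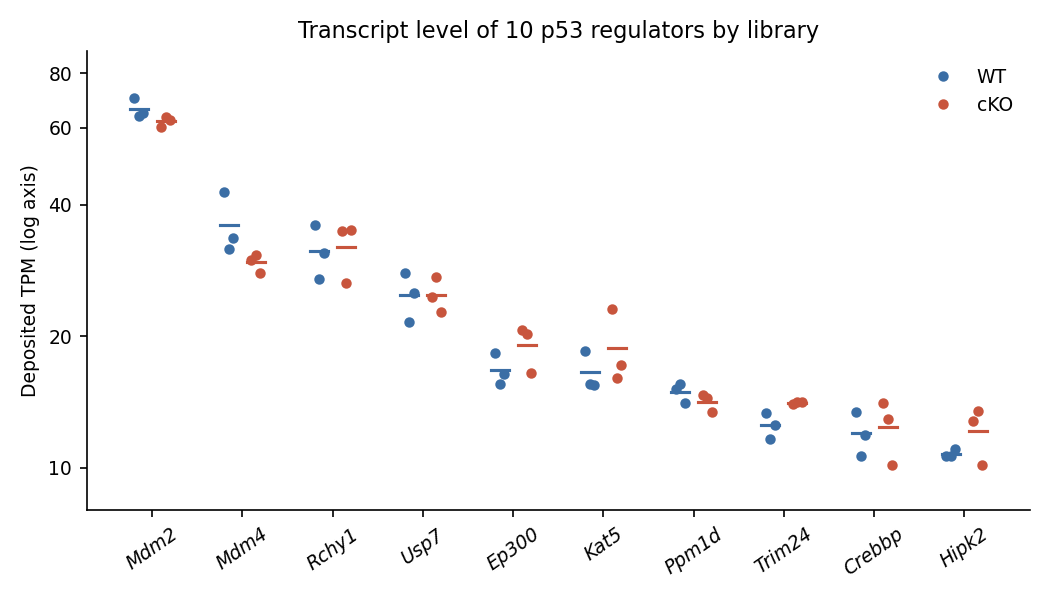
Deposited TPM (log axis) of the 10 regulators, ordered by their WT mean, with 1 point for each library and a bar at the mean of 3. Mdm2 sits at 60.3 to 70.3 TPM in all 6 libraries, above every other gene, and the Mdm4 points of cKO lie below those of WT.

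No regulator passed the threshold in cKO against WT: 0 of 10 were called by edgeR's quasi-likelihood test (adjusted p between 0.396 and 0.987, adjusted over all 28543 genes tested), where 0.0596% of all genes were called, 0.0245% higher and 0.035% lower. DESeq2 and limma-voom also called 0 of the 10, and they called 0.945% and 0.0175% of the genes they tested. Mdm4 alone, which was lower, reached an unadjusted p below 0.05. Over all genes 8.51% did so, 4.28% with a higher and 4.23% with a lower value in cKO. The median log2 fold change of the 10 was 0.02, with 6 above 0 and 4 below, and over all genes tested it was -0.01. The 95% intervals of the 10 fold changes had half-widths of 0.16 (Mdm2) to 0.30 (Kat5) on the log2 scale, and from their lowest to their highest bound they ran from 29.7% lower (Mdm4) to 37.2% higher (Kat5). The smallest change that was called among all genes was 0.49 on that scale, and the point estimates of all 10 regulators were smaller than this.

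MDM2 and MDM4 are the core of p53 degradation. Mdm2 (ENSMUSG00000020184, chromosome 10, 117688875 to 117710758, minus strand, GRCm38) had 154, 148 and 147 CPM in WT libraries 1 to 3 and 133, 139 and 141 CPM in cKO libraries 1 to 3. The groups did not overlap, with cKO lower, and the difference did not pass the test (log2 fold change -0.12, 95% interval -0.28 to 0.04, edgeR adjusted p = 0.714). Mdm2 has a constitutive promoter and an internal promoter that p53 activates. The files give 1 count for the whole gene, so transcripts from these promoters could not be told apart.

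Mdm4 (ENSMUSG00000054387, chromosome 1, 132959484 to 133030561, minus strand) had the lowest p of the 10. It had 272, 213 and 221 CPM in WT and 192, 196 and 184 CPM in cKO, with every cKO library below every WT library and WT library 1 well above the other 5. Its log2 fold change was -0.30 (SE 0.0946, 95% interval -0.51 to -0.10), a ratio of 0.810 of cKO to WT, with an unadjusted p of 0.00703 and an edgeR adjusted p of 0.396. Without WT library 1 it was -0.19 (adjusted p = 0.527), and across the 15 other fits it lay between -0.37 and -0.19 with adjusted p between 0.122 and 0.847. Its interval excluded 0, and those of the other 9 genes included 0. Of the 25-base words in Mdm4 transcripts 17.7% also occur in transcripts of another gene, mostly the pseudogene Mdm4-ps, which was looked up after this overlap was seen. Mdm4-ps had only 164 to 209 counts, against 9003 to 12536 for Mdm4, and a read with equally good alignments in the gene and the pseudogene was left out of both counts. Like Mdm2, the Mdm4 count sums all splice forms, including any that lack the p53-binding part.

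The ratio of Mdm4 to Mdm2 is of interest because the proteins act as a pair. Per length it was 0.607, 0.496 and 0.518 in WT and 0.497, 0.485 and 0.447 in cKO, ranges that overlapped at 0.496 to 0.497. In all 6 libraries there was thus less Mdm4 than Mdm2 RNA by this measure.

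Of the 10 regulators, Mdm2, Ppm1d, Rchy1 and Trim24 are known as genes that p53 itself activates, so their own RNA is a readout of p53 as well. RefSeq promoter windows (build GRCm38.p6, 250 bases before to 50 after an annotated start) were searched for the p53 decamer, the 10-base unit of p53 binding sites, without mismatches. The motif reads the same on both strands, so 1 search covers both. All 10 regulators had a window, 15 in all, and these 4 genes had a match, each in 1 window. The further windows of Rchy1 and Trim24 held none. The Mdm2 window lies at the outermost start of the gene, so its match is not in the internal promoter. Among all 27025 genes with a window 9.55% had a match, against 4 of the 10. Among all 32851 windows 8.36% did, against 4 of the 15. The share was 8.29% for genes with 1 window and 14.9% for genes with 2, and 5 of the 10 regulators had 2. The regulators were chosen by name, and enrichment was not tested. The matches are shown with up to 25 bases on each side, 5′ to 3′ on the gene's strand and with the decamer in capitals. Beside them are the 2 matches in the upstream window of the p53 target Cdkn1a. The downstream window of Cdkn1a held none. The p53 target Ccng1 was searched as well, and its window held 1 match, 185 bases before the start, which is not shown. All these matches are matching letters and not measured binding.
Mdm2, chr10:117710910-117710969, minus strand, 186 bases before the start: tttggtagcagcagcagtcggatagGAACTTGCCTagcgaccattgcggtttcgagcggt
Ppm1d, chr11:85311097-85311156, plus strand, 132 bases before the start: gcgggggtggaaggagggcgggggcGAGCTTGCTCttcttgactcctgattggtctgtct
Rchy1, chr5:91962612-91962671, minus strand, 90 bases before the start: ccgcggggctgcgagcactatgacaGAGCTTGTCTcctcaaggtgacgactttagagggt
Trim24, chr6:37870629-37870688, plus strand, 157 bases before the start: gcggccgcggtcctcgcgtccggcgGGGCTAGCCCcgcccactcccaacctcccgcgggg
Cdkn1a, chr17:29090881-29090940, plus strand, 73 bases before the start: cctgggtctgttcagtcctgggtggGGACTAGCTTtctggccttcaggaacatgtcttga
Cdkn1a, chr17:29090903-29090962, plus strand, 51 bases before the start: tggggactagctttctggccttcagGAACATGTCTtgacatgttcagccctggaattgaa

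The RNA of these 4 genes did not change past the threshold, and their log2 fold changes had both signs. Ppm1d (ENSMUSG00000020525, chromosome 11, 85311244 to 85347066, plus strand), whose phosphatase dephosphorylates p53 and the kinases that activate it, had 20.7, 22.5 and 19.9 CPM in WT and 20.2, 19.7 and 18.96 CPM in cKO. The ranges overlapped (log2 fold change -0.10, 95% interval -0.33 to 0.13, edgeR adjusted p = 0.857). It was the least sequenced of the 10, with 905 to 1063 counts, and the only one with no 25-base word in common with another gene.

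Rchy1 (ENSMUSG00000029397, chromosome 5, 91948904 to 91963068, minus strand) encodes PIRH2, a ubiquitin ligase that acts on p53 independently of MDM2. It had 58.2, 46.4 and 52.1 CPM in WT and 56.9, 42.9 and 58.8 CPM in cKO. The lowest value in each group was that of library 2, and the groups overlapped fully (0.02, 95% interval -0.26 to 0.29, edgeR adjusted p = 0.987). The exons of Thap6 on the other strand cover 680 of the 3773 exon bases of Rchy1. Counting ignored strand and assigned shared reads to both genes, so part of the Rchy1 count may be Thap6, which had 907 to 1373 counts against 1973 to 2941 for Rchy1.

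Trim24 (ENSMUSG00000029833, chromosome 6, 37870811 to 37966296, plus strand), a ubiquitin ligase that also binds chromatin and nuclear receptors, had 49.0, 45.2 and 47.5 CPM in WT and 51.7, 51.7 and 53.8 CPM in cKO. Among the 10, its cKO libraries alone all lay above the WT libraries, and the difference did not pass the test (0.15, 95% interval -0.03 to 0.33, edgeR adjusted p = 0.682). With Mdm2 and Mdm4, which were lower, 3 of the 10 regulators had groups that did not overlap. Over all genes tested 14.4% did not overlap, 7.14% with cKO higher and 7.28% with cKO lower.

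Usp7 encodes a deubiquitinase, also called HAUSP, that removes ubiquitin from MDM2 and from p53. Usp7 (ENSMUSG00000022710, chromosome 16, 8689595 to 8792308, minus strand) had 93.5, 76.2 and 87.2 CPM in WT and 82.8, 91.4 and 78.7 CPM in cKO. The group means, 85.6 and 84.3 CPM, lay closer together than the libraries within either group (log2 fold change -0.02, 95% interval -0.23 to 0.19, edgeR adjusted p = 0.972).

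Hipk2 (ENSMUSG00000061436, chromosome 6, 38694390 to 38876165, minus strand) encodes a nuclear kinase that phosphorylates p53 after severe DNA damage. It had 40.5, 42.7 and 43.6 CPM in WT and 49.1, 51.3 and 39.9 CPM in cKO. Libraries 1 and 2 of cKO were above all WT libraries and library 3 was below them (0.15, 95% interval -0.08 to 0.38, edgeR adjusted p = 0.755). Without cKO library 3 the log2 fold change was 0.25 (edgeR adjusted p = 0.381), and without cKO library 2 it was 0.07. These were the highest and lowest values with a single library left out.

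The acetyltransferase genes differed in how the cKO libraries lay. Ep300 (ENSMUSG00000055024, chromosome 15, 81585351 to 81652077, plus strand) had 112, 101 and 105 CPM in WT and 128, 124 and 105 CPM in cKO, with libraries 1 and 2 of cKO above all WT libraries (0.17, 95% interval -0.03 to 0.37, edgeR adjusted p = 0.665). With single libraries left out its log2 fold change ran from 0.11 without cKO library 1 to 0.25 without cKO library 3 (edgeR adjusted p = 0.350 for the latter). Crebbp, the paralog of Ep300 (ENSMUSG00000022521, chromosome 16, 4081328 to 4213997, minus strand), had 78.1, 65.6 and 71.8 CPM in WT and 82.6, 75.5 and 61.2 CPM in cKO. Both the highest and the lowest of the 6 values were in cKO (0.02, 95% interval -0.22 to 0.27, edgeR adjusted p = 0.975).

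The p300 and CBP proteins are close relatives with overlapping substrates, and the ratio of their RNAs is given here. Ep300 was above Crebbp per length in all 6 libraries, by a ratio of 1.36, 1.46 and 1.38 in WT and 1.47, 1.56 and 1.62 in cKO. All cKO ratios were above the WT ratios, with means of 1.40 ± 0.0495 and 1.55 ± 0.0748 (SD, n = 3 each). This ratio was chosen after the values of both genes were known and was not tested.

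Kat5 (ENSMUSG00000024926, chromosome 19, 5603014 to 5610237, minus strand) encodes the TIP60 acetyltransferase, which marks p53 at a lysine of its DNA-binding domain. It had 28.0, 24.9 and 24.3 CPM in WT and 35.2, 24.3 and 26.8 CPM in cKO. The positive mean difference came from cKO library 1 alone: the log2 fold change was 0.16 with all libraries (95% interval -0.13 to 0.46, edgeR adjusted p = 0.805) and -0.01 without it. Rnaseh2c on the other strand shares 12.1% of the exon bases of Kat5 and had 697 to 1026 counts, against 1116 to 1662 for Kat5, so shared reads limit this value as well. Rnaseh2c itself had a log2 fold change of -0.27 (adjusted p = 0.576).

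**Figure D2:**
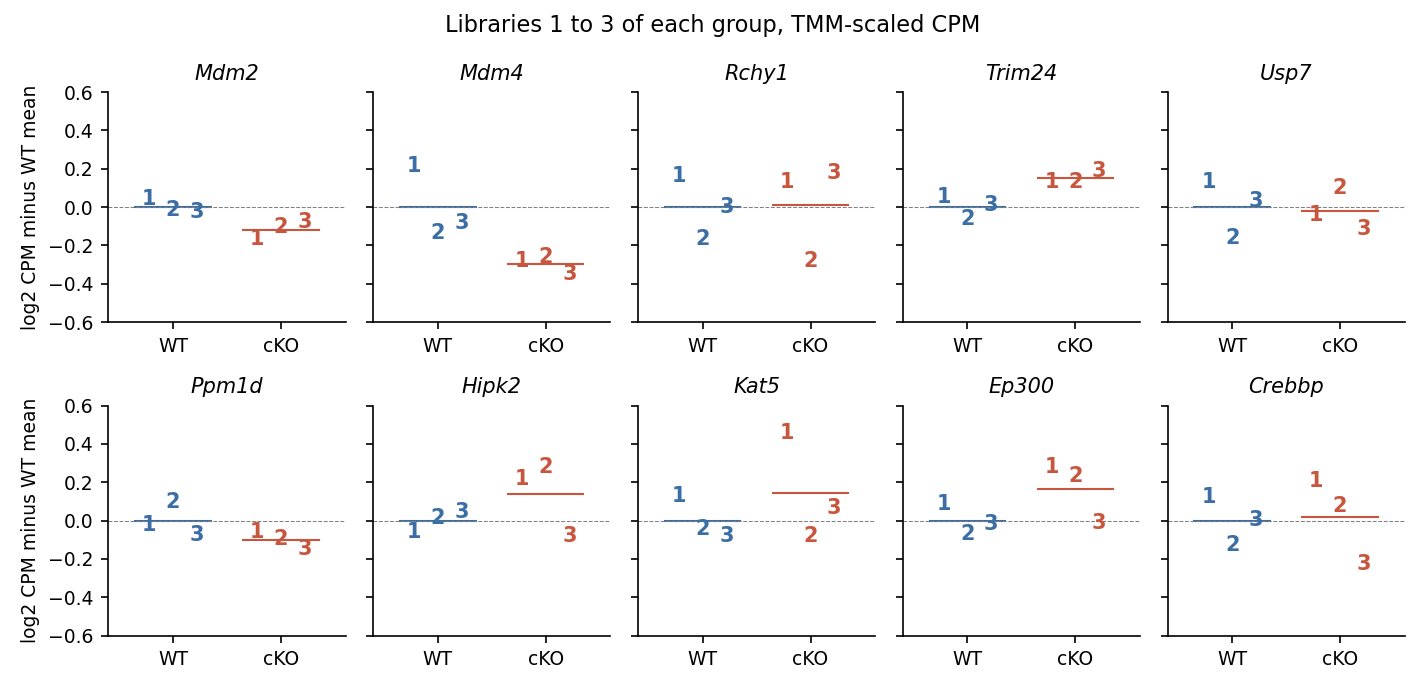
Log2 CPM minus the WT mean for each regulator, where the digits 1 to 3 are the libraries of each group and the lines are group means. Mdm4 and Mdm2 have all cKO libraries below WT and Trim24 has them all above, while in Hipk2, Ep300 and Crebbp library 3 of cKO lies below libraries 1 and 2.

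The plot by library also shows how single libraries stood. WT library 1 was the highest of its group in 8 of the 10 genes and the lowest in 1, Hipk2. Library 3 of cKO was the lowest of its group in 6 of the 10, among them Hipk2, Ep300 and Crebbp. The same counts were not made over all genes, so neither is read as a trait of the regulators. The spread within a group was smallest for Trim24 in cKO (SD 0.0330 on the log2 scale) and largest for Kat5 in cKO (SD 0.277). For Mdm4 the SD was 0.189 in WT and 0.0467 in cKO.

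Other genes that p53 activates show how the loss of p53 was read in the same libraries. Cdkn1a, the gene of the CDK inhibitor p21, had 220 to 241 CPM in WT and 118 to 130 CPM in cKO, 46.3% lower (log2 fold change -0.90, 95% interval -1.07 to -0.73, edgeR adjusted p = 4.45e-04). Ccng1, which encodes cyclin G1, had 199 to 224 and 119 to 127 CPM (-0.80, 95% interval -0.97 to -0.63, adjusted p = 0.00130). Neither interval overlaps that of any of the 10 regulators, but these genes are at the far end of the p53 targets. A list of 31 p53 targets was chosen with earlier results of these data known. Of these, 3 were called lower and 0 higher, with 26 below 0 and a median of -0.25. Over all genes tested, 0.035% were called lower and 0.0245% higher, and 14544 of 28543 lay below 0. The third target called was Psrc1, which encodes a spindle protein, at -1.45 (adjusted p = 0.0424). At an unadjusted edgeR p below 0.05, 16 targets were lower and 1 was higher, against 4.23% and 4.28% of all genes. The groups did not overlap in 15 targets with cKO lower and 1 with cKO higher, against 7.28% and 7.14%. Of the 31 targets, 16 had a log2 fold change no farther from 0 than that of Mdm4, the regulator farthest from 0. Among them were Zmat3 at -0.25, Ddb2 at -0.02 and Sesn1 at 0.12, which were picked as examples after their values were seen. The interval of Zmat3, -0.42 to -0.08, excluded 0, and those of Ddb2 and Sesn1 included it. The intervals of 27 targets overlapped that of at least 1 regulator. The intervals of the 10 regulators together ran from -0.51 to 0.46, so most moderate changes meet this criterion and it does not show likeness. The median absolute log2 fold change was 0.25 for the targets and 0.13 for the 10 regulators.

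**Figure D3:**
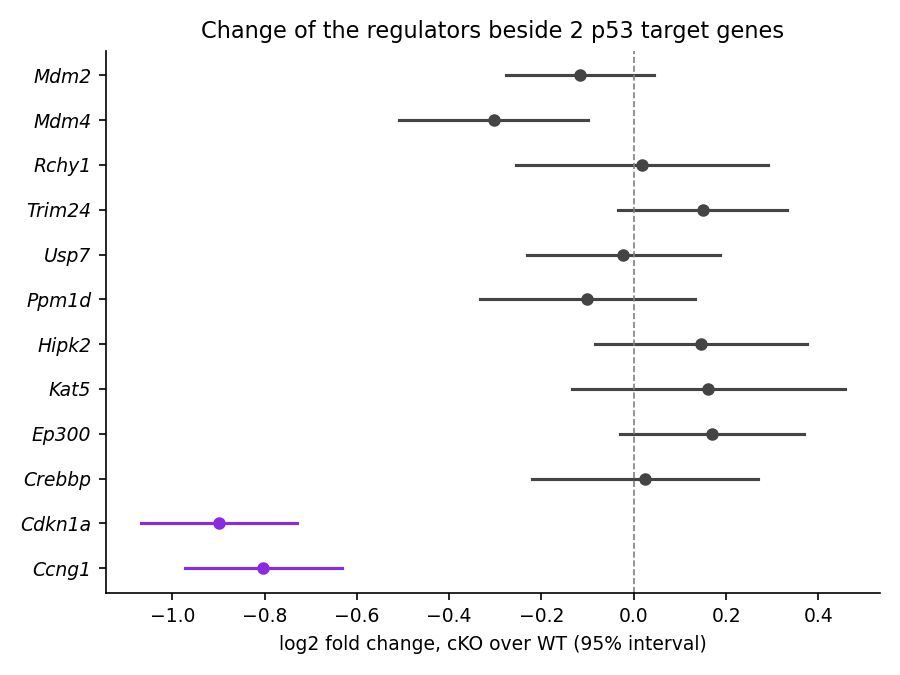
Log2 fold change of cKO over WT with its 95% interval (edgeR) for the 10 regulators and for the p53 targets Cdkn1a and Ccng1. The regulators lie between -0.30 and 0.17 and these target genes, 2 of the 3 called among 31, at -0.90 and -0.80. Of all 31 targets, 16 lie no farther from 0 than Mdm4, the regulator farthest from 0.

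The wider set of genes that act on p53 gave no call either. Of 93 other regulators listed by role, 92 were matched and tested, and 0 were called higher or lower. Of these, 8 had an unadjusted p below 0.05, 5 of them higher and 3 lower in cKO, a share close to the 8.51% of all genes tested. Their median log2 fold change was 0.01, with 48 above 0 and 44 below. The lowest p belonged to Vrk1, a kinase that phosphorylates p53 and chromatin proteins, with 27.0 ± 1.66 CPM in WT and 20.9 ± 2.31 in cKO (-0.37, edgeR adjusted p = 0.394). Dusp26, a phosphatase gene of low expression, followed at 2.46 ± 0.424 and 1.52 ± 0.209 CPM (-0.69, adjusted p = 0.475). Gsk3b, another kinase gene, had 98.7 ± 7.84 and 114 ± 6.74 CPM (0.20, adjusted p = 0.554).

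By role, none of the 14 further ubiquitin ligases and cofactors, 11 deubiquitinases, 20 kinases, 7 phosphatases, 8 acetyltransferases and deacetylases, 7 methyltransferases and demethylases or 16 cofactors passed. The genes Trrap, Ep400, Ruvbl1, Ruvbl2 and Dmap1, whose proteins with that of Kat5 form the TIP60 complex, had log2 fold changes of -0.05 to 0.09. The most abundant of the 92 per length were Sirt1, a deacetylase of p53, at 280 ± 25.9 TPM in WT and 271 ± 29.0 in cKO, and Ppp1ca, a phosphatase subunit, at 256 ± 5.77 and 256 ± 10.7 TPM. Neither passed (log2 fold change -0.07 and -0.03, adjusted p = 0.903 and 0.960).

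The 9 inhibitors of MDM2 had a median of -0.12, with 7 below 0 and none called. Rps7, a ribosomal protein that binds MDM2 when ribosome assembly is disturbed, had 36.1 ± 3.13 CPM in WT and 29.9 ± 2.29 in cKO with no overlap (-0.27, edgeR adjusted p = 0.508). The ribosomal proteins Rpl5, Rpl11 and Rpl23, which act on MDM2 in the same way, had -0.14, -0.15 and -0.09. These values stood beside the lower share of all ribosomal protein genes in cKO given above. Cdkn2a, whose locus encodes the MDM2 inhibitor ARF and the CDK inhibitor p16, had 0.27 (adjusted p = 0.583), and its count does not separate the products. Numb had 0.20 (edgeR adjusted p = 0.582), with every cKO library above every WT library. Of the 9 inhibitors, 2 were higher and 1 was lower at an unadjusted edgeR p below 0.05. The groups did not overlap in 1 with cKO higher and in 4 with cKO lower. Over all genes tested, 8.51% had such a p. The groups of 7.14% did not overlap with cKO higher, and those of 7.28% with cKO lower. Among all 92 other regulators, these counts were 6 higher and 7 lower. Whether the inhibitors differ from other genes was not tested.

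**Figure D4:**
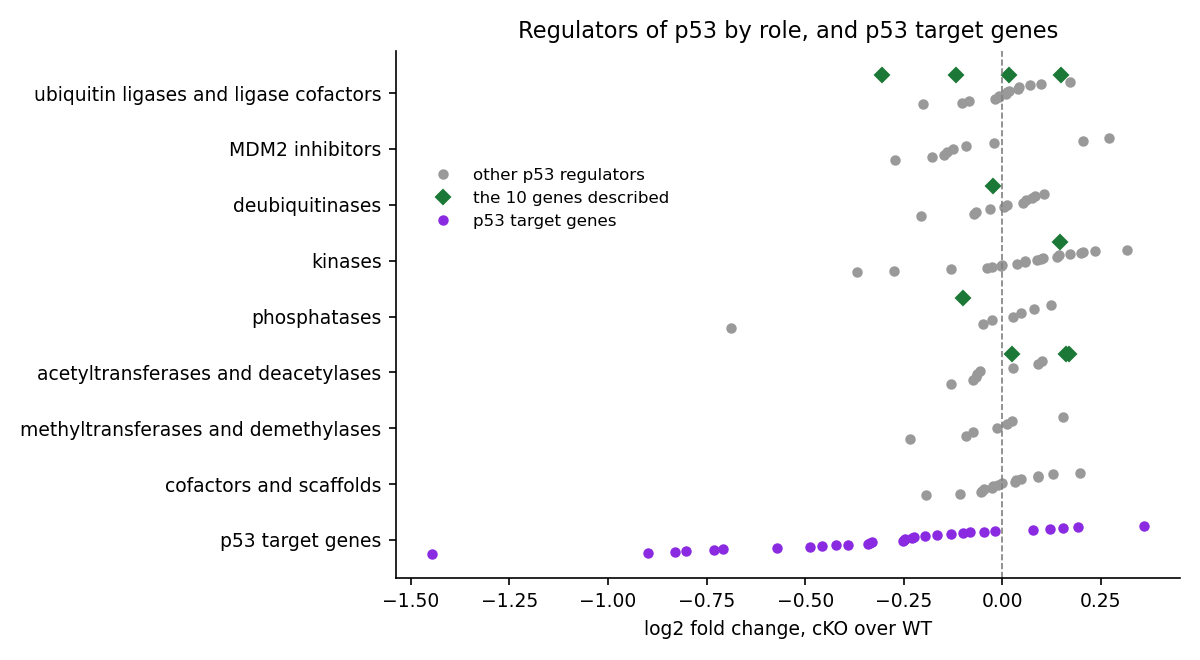
Log2 fold change of cKO over WT for 92 other p53 regulators by role (grey), the 10 genes described (green diamonds, with Mdm4 placed among the ligases) and 31 p53 target genes (purple). The regulators spread on both sides of 0, with Dusp26 at -0.69 the lowest, and 26 of the 31 target genes lie below 0.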

How the data were processed

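The authors deposited raw read counts per gene for each library and a series table with the same counts and TPM. The submitters' processing notes name TopHat2 2.1.1, SAMtools 1.9, featureCounts and Subread 2.0.1 with the build mm10; the labels' protocols name a stranded kit and paired-end reads. Per the file headers, featureCounts 2.0.0 counted exons of Ensembl release 99 (GRCm38), ignoring strand and assigning a read to every gene it overlaps. The header shows neither pair counting nor counting of reads with several alignments. The deposited TPM values, which the authors scaled per length, matched counts per kilobase rescaled over the 51810 genes of the table to within 0.000834% for values over 1, and all counts were equal in both sources. The count files hold 55385 genes.

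Counts were tested with edgeR 4.0.16 in R 4.3.3 (TMM, filterByExpr, robust quasi-likelihood F test, genotype only), with Benjamini-Hochberg adjustment over 28543 genes and a threshold of 0.05. Log2 fold changes are cKO over WT. Their 95% intervals use the SE (fold change over the square root of F) and the total degrees of freedom. CPM is TMM scaled. Levels between genes are compared in TPM. The fit was tested on simulated data in which the changes set were larger than that of any regulator. Recovery of changes as small as those of the regulators was not tested. Alternatives were other scalings and filters, DESeq2 1.42.0, limma-voom (limma 3.58.1), no robust estimation, a replicate block and leaving out each library.

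The text names all 10 regulators, Trp53, Cdkn1a and Ccng1, genes whose exons overlap a regulator, and of the other regulators the 4 with the lowest p and the 2 of highest TPM. Genes beyond this rule were chosen after their values were seen: Mdm4-ps, Psrc1, Zmat3, Ddb2, Sesn1, Rpl5, Rpl11, Rpl23, Numb, Cdkn2a and the TIP60 partners. The regulators and lists were chosen with earlier results of these data known. The symbol Trp53rk was not matched and is not analysed here. Ep300 also shares 54 exon bases with Gm23880, which had 13 to 27 counts.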

Additional observations from a re-analysis of the deposited data

How the results depend on the processing

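None of the 10 regulators was called under any of the 15 alternative settings. Of the 150 regulator values under these settings, 141 kept their sign and 9 changed it, all in genes with a log2 fold change close to 0 or, for Kat5, resting on cKO library 1. Leaving out single libraries gave -0.10 to 0.0449 for Usp7, -0.0656 to 0.15 for Rchy1, -0.0063 to 0.27 for Kat5 and -0.0704 to 0.14 for Crebbp. Scaling by library totals gave -0.0026 for Rchy1. None of the 92 other regulators was called under these settings either.

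The number of genes called among all tested was 17 (7 higher, 10 lower). It was 160 with no filter, 6 without robust estimation, 186 with DESeq2, 5 with limma-voom and 6 to 16 with single libraries left out, lowest without WT library 3 (6), WT library 1 (7) or cKO library 2 (7). With the replicate number as a block it was 203 (138 higher, 65 lower). The correlations of same-numbered libraries were 0.113, 0.0544 and 0.0755, so the numbers were not taken to pair the libraries, although each library correlated best with its own number, a hint from the data and not the design. With the block Mdm4 had an adjusted p of 0.122. The p53 targets called were 7 with no filter, 8 with the block and 8 with DESeq2, against 3. All of these were lower in cKO, except 1 of the 8 with the block, which was higher. Of the 9 neighbouring pairs in the WT order of levels, 8 to 9 kept their order when a WT library was left out. With 3 libraries a group, the intervals of the regulators limit what can be said: a change of any size within them is compatible with these data. The cause of the other differences between settings was not tested.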
